A study of Mus musculus with 26 samples.

Results

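RNA sequencing compared motor neuron spheroids kept on a magnetic array that was moved with spheroids kept on the same kind of array that was never moved. The comparison was defined by the labels alone: 4 libraries with mechanical stimulation (M1 to M4, the actuated array) against 3 of the 4 libraries labelled as mechanical controls (MC1, MC2 and MC4, the static array), which is 7 of the 26 libraries in the series. The remaining static library, MC3, was set aside because its counts on protein-coding genes summed to 457670, under the minimum of 1000000, and values from it or with it added are given beside many of the genes. All groups came from 1 cell line, HBG3, a mouse embryonic stem cell line with a GFP reporter driven by the promoter of HB9 (Mnx1), whose genotype is labelled as heterozygous blastocysts. The cells were expanded on a feeder layer, differentiated with retinoic acid and purmorphamine, given CNTF and GDNF from day 5, and seeded as spheroids of about day 8 on a fibrin platform. Actuated spheroids were moved for 30 min each day at 4 Hz, and static spheroids sat on a matrix that held the magnetic silicone array but was not moved. The time of harvest after the last actuation, the number of spheroids per library and whether libraries of a group came from separate cultures are not given in the labels, so p-values measure only the spread between these libraries. The series was designed to separate mechanical from biochemical effects of muscle exercise on motor neurons, and the comparison here is its mechanical arm.

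Spinal motor neurons send axons to muscle and release acetylcholine, which is made by choline acetyltransferase and loaded into vesicles by the vesicular acetylcholine transporter. Cells sense movement of their substrate through stretch-gated channels, integrin adhesions and the actin cytoskeleton. The usual transcriptional readouts of these inputs are immediate early genes such as Fos and Egr1, targets of the YAP and TAZ coactivators, and actin genes controlled by serum response factor (SRF).

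Library measures overlapped between the groups. Total counts were 7269276 to 9839951 on the actuated array and 7724923 to 13162635 on the static array, and a count of 0 in these 7 libraries allowed a level of up to 0.228 to 0.413 CPM (counts per 1000000 counts of the library, here for 3 counts). Total counts, the number of genes with a count and the shares of protein-coding, rRNA and mitochondrial mRNA counts were compared by exact two-sided permutation tests. The raw p-values were between 0.343 and 0.914 and the adjusted value over these 5 tests was 0.914 for each (4 against 3 libraries cannot give a p below 0.0571). MC3 had 613344 counts in total, a limit of 4.89 CPM, and yet the most genes with a count, 31731 against 19330 to 23420 in the other 7. Neuronal and glial genes were abundant in every library, with Tubb3, a neuronal tubulin, at 382 to 637 TPM (transcripts per 1000000, scaled by transcript length) and Gfap, an astrocyte filament, at 835 to 1303 TPM over the 7 libraries.

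No gene passed the test between the actuated and the static array. Of 14600 genes fitted, 0 (0%) passed an adjusted p of 0.05 in edgeR's quasi-likelihood test, and the smallest adjusted p was 0.9999. At an unadjusted p under 0.05 there were 402 genes (2.75%), 198 higher (1.36%) and 204 lower (1.4%) on the actuated array. With no difference, a share of 0.05 is given on average, so this share was below it. The 402 became 862 with a covariate for library numbers 1-2 against 3-4, and 999 with a replicate block. The number of genes called was also 0 by DESeq2's Wald test and by limma-voom. The actuated and static libraries did not overlap in 631 genes (4.32%), of which 306 (2.1%) were higher and 325 (2.23%) were lower on the actuated array. Were the libraries in random order, 4 would separate from 3 with a probability of 0.0571 per gene.

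The size of difference that these libraries could have held depended on expression level and on the spread between libraries. The 95% interval of the log2 difference lay inside 2-fold in either direction for 11338 genes (77.7%) and inside 1.5-fold for 8132 (55.7%). Over 100 CPM the interval was inside 2-fold for 98.9% of 2160 genes, with a median standard error (SE) of 0.097 on the log2 scale. Between 10 and 100 CPM it was inside 2-fold for 97.0% of 7787 genes, and between 1 and 10 CPM for 36.3% of 4546 genes, where the median SE was 0.40. Below 1 CPM no interval of 107 genes was inside 2-fold. Some genes over 100 CPM that varied between libraries also had wide intervals. They include Egr1 (mean 123 CPM, -1.66 to 3.72) and Col1a1 (mean 162 CPM, -2.15 to 1.28).

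**Figure D1:**
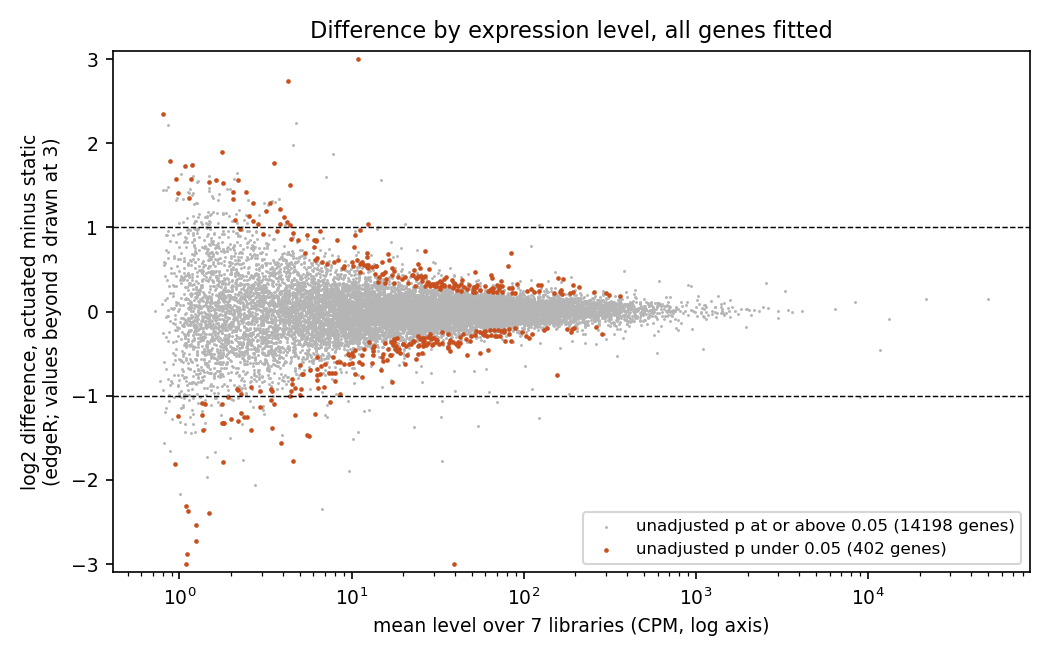
Each point is 1 of the 14600 genes, with its mean level over the 7 libraries on a log axis (CPM) and its log2 difference, actuated minus static, on the vertical axis. The dashed lines mark 2-fold, the 402 genes at an unadjusted p under 0.05 are in colour, and none passed adjustment.

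The genes closest to a call are described here without being called, as the 15 protein-coding genes of smallest unadjusted p in each direction among those of at least 10 CPM. This choice, made by p in these same libraries, favours genes whose groups do not overlap, so their separation is no further evidence. Jun, which encodes a subunit of the AP-1 transcription factor induced by stress and axon injury, was measured at 172, 197, 181 and 202 CPM in M1 to M4. On the static array Jun was at 150, 131 and 151 CPM in MC1, MC2 and MC4. Every actuated library was above every static one. MC3 was at 86.4 CPM before scaling, but abundant genes such as Gapdh were low there too. Gapdh was at 717 CPM in MC3 and at 1067, 1078 and 1099 CPM in MC1, MC2 and MC4. The unscaled level of MC3 is therefore no separate evidence on Jun. The log2 difference of Jun was 0.39 (SE 0.09, 95% interval 0.18 to 0.59, unadjusted p = 0.00178 in edgeR, adjusted p = 0.9999). It was between 0.33 and 0.53 in all alternatives run, including 0.51 with MC3 added.

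The promoters of Jun, of Fos, whose level followed the library number (given further on), and of Btg2, the one promoter read here that holds TGACGTCA, are shown as the 250 bases before the transcription start, read on the gene's strand. They come from RefSeq promoters on GRCm38.p6, where all 3 genes had an entry, at chr4:95052223-95052472 (minus strand), chr12:85473640-85473889 (plus strand) and chr1:134079156-134079405 (minus strand). Capitals mark matches on either strand to the cAMP response element TGACGTCA, the AP-1 element TGACTCA, the variant AP-1 element TGACATCA, the CArG box that SRF binds, the GC box GGGCGG, or an A/T-rich MEF2-type element.
Jun: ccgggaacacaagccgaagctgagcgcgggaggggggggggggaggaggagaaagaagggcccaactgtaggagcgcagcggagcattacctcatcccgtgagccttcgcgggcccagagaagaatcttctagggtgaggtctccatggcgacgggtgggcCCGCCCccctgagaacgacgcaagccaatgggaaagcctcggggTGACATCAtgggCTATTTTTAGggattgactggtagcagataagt
Fos: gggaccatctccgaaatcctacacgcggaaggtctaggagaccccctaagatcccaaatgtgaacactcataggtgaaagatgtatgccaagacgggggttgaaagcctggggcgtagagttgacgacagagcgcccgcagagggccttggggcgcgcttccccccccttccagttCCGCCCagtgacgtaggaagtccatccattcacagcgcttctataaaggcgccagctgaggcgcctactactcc
Btg2: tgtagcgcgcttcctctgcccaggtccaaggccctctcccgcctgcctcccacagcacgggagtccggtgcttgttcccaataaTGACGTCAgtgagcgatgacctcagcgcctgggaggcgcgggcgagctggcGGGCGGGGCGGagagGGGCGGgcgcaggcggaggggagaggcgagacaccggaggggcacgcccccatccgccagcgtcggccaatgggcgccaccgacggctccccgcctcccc
The Jun window holds the variant AP-1 element 45 bases and the MEF2-type element 33 bases before the start. Of 32536 distinct promoter windows of this length, 2.84% hold TGACATCA and 0.104% hold the MEF2-type element. The Btg2 window holds TGACGTCA, found in 1.56% of windows, and 3 GC boxes, the first 2 of which overlap by 1 base. Fos and Jun hold 1 GC box each, an element found in 33.0% of windows. No CArG box (1.48% of windows) or TGACTCA (4.45%) lies in these 3 windows, and bases further upstream were not searched. A match describes letters in the window only.

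The other genes that led in the upward direction were measured at lower levels. Sord, the enzyme sorbitol dehydrogenase, was at 26.3, 25.7, 26.6 and 26.6 CPM on the actuated array and at 16.8, 19.4 and 19.6 CPM on the static array (log2 difference 0.50, SE 0.13). Dusp16, a phosphatase of the JNK kinases, was at 28.1, 28.6, 31.1 and 25.4 against 16.4, 19.0 and 22.0 CPM (0.57, SE 0.14). Prkdc, the catalytic subunit of the DNA-dependent protein kinase, was at 28.7, 32.8, 30.0 and 37.3 against 20.7, 23.0 and 24.1 CPM (0.51, SE 0.13). In each of these genes the lowest actuated library stood above the highest static one, with unadjusted p-values between 0.00233 and 0.00315 in edgeR. The same held at smaller or noisier differences for the zinc finger gene Zbtb22 (0.68), the kinase gene Pak6 (0.37), the catenin gene Ctnna3 (0.59), Nars2, a mitochondrial asparaginyl-tRNA synthetase (0.76), the chromatin remodeller Chd7 (0.27) and Cyhr1 (0.42). With all 26 libraries in 1 model Ctnna3 turned to -0.10.

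The set-aside library MC3 went against several of these genes. Dusp16 was at 58.7 CPM in MC3 before scaling, above every actuated library, and adding MC3 took its difference from 0.57 to 0.25 (unadjusted p = 0.43 in edgeR). Ctnna3 was at 50.5 CPM and went from 0.59 to 0.10, and Nars2 was at 26.1 CPM and went from 0.76 to 0.40. Chd7, at 139 CPM in MC3, went from 0.27 to 0.17. Sord, Prkdc and Pak6 were at 0.51, 0.56 and 0.34 with MC3 added.

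Genes that led in the downward direction, chosen by p in the same way, also separated the groups without passing the test. Tango2, named for transport and Golgi organization, was at 16.5, 16.4, 16.4 and 16.5 CPM on the actuated array and at 23.1, 23.5 and 29.9 CPM on the static array, with 50.5 CPM in MC3. Its log2 difference was -0.63 (SE 0.14, unadjusted p = 0.00107 in edgeR). The 4 actuated values of Tango2 lie closer together than the 3 static values. Gfer, a sulfhydryl oxidase of the mitochondrial intermembrane space, was at 35.12, 35.98, 35.03 and 37.90 against 45.9, 50.1 and 44.7 CPM (-0.38, SE 0.10). Timm17a, a subunit of the mitochondrial import channel, was at 38.4, 29.7, 30.5 and 29.3 against 40.8, 44.4 and 42.9 CPM (-0.42, SE 0.12). Other leading genes were Mrpl46 of the mitochondrial ribosome (-0.57), Atp5g1, a c subunit of ATP synthase (-0.36), Elp5 of the Elongator complex (-0.37), Nptx1, a secreted neuronal pentraxin (-0.38), the esterase gene Esd (-0.27), the serotonin receptor gene Htr1b (-0.50), the Mediator subunit Med28 (-0.34), Unc13c, which primes synaptic vesicles (-0.54), the GTP-binding protein gene Drg1 (-0.31) and Cby1 (-0.30). With MC3 added, Esd went to -0.12 and Drg1 to -0.15, while Tango2 was at -0.81 and Unc13c, with 48.9 CPM in MC3, at -0.85. The groups did not overlap in any of these genes.

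**Figure D2:**
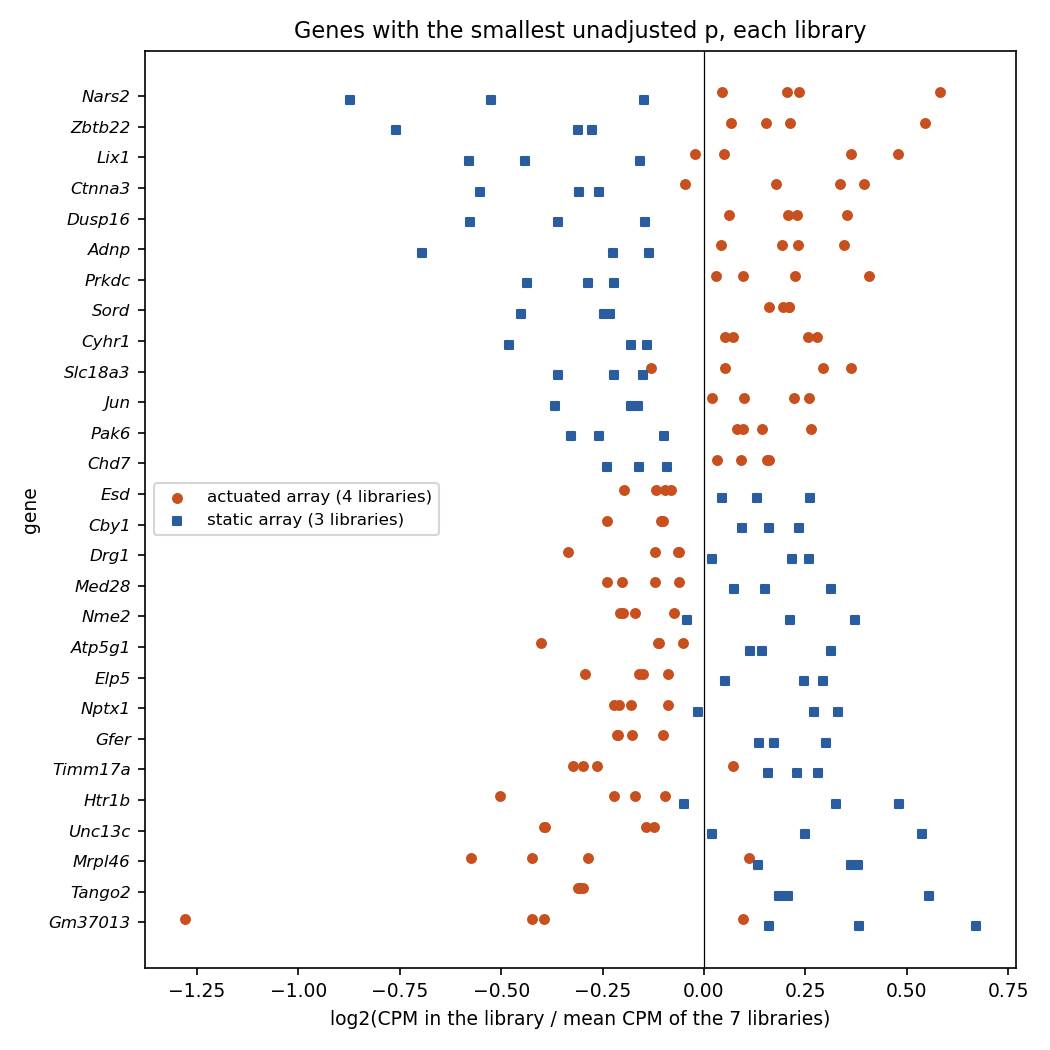
The level of each leading gene in each library is plotted as the log2 ratio to the gene's mean over the 7 libraries, with actuated libraries as circles and static libraries as squares. In the 13 genes of the upper block (Zfp969 is among those not drawn) the actuated libraries lie to the right, and in the 15 genes of the lower block to the left, by less than 2-fold in the group means.

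For 8 of the 30 leading genes at least 10% of the 31-base words in the reference transcripts (GENCODE vM21, GRCm38) also occur in another gene, so that short reads could be given to either. The clearest case is Zfp969, a zinc finger gene at chr2:175692223-175703646 on the minus strand. Its counts were 228, 0, 228 and 149 in M1 to M4, 0 in MC1, MC2 and MC4, and 41 in MC3. Zfp968, at chr2:175372436-175384201 on the plus strand, 308 kb away, had counts of 0, 175, 0 and 0 in M1 to M4, then 184, 193 and 108 in MC1, MC2 and MC4, and 0 in MC3. In each of the 8 array libraries exactly 1 of the 2 genes had counts.

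The coding sequences of Zfp968 and Zfp969 are each 1455 bases long and identical at every position, and 100% of the 31-base words of Zfp969 occur in Zfp968. The first 90 coding bases of the last coding exon are printed to show this (chr2:175381994-175382083, plus strand, and chr2:175694077-175694166, minus strand). No base is in capitals because none differs.
Zfp968: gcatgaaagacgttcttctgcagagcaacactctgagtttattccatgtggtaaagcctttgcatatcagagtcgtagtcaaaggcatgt
Zfp969: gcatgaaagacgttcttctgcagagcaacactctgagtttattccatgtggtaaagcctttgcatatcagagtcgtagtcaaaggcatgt
Of the 18 biochemical libraries, 13 had counts of 1 of the 2 genes, 2 had counts of both and 3 of neither. Summed over the pair and scaled, the level was 31.3, 17.3, 26.02 and 18.9 CPM on the actuated array and 21.8, 15.0 and 13.9 CPM on the static array. The groups overlap, and the log2 difference of the sum was 0.47 (SE 0.24, 95% interval -0.06 to 0.99, unadjusted p = 0.075 in edgeR). Of the words of Zfp968, 97.3% occur in other genes and 65.9% in Zfp966, which is not in the sum. Whether reads of the pair also went to Zfp966 was not tested. No fold is given for Zfp969 alone.

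**Figure D3:**
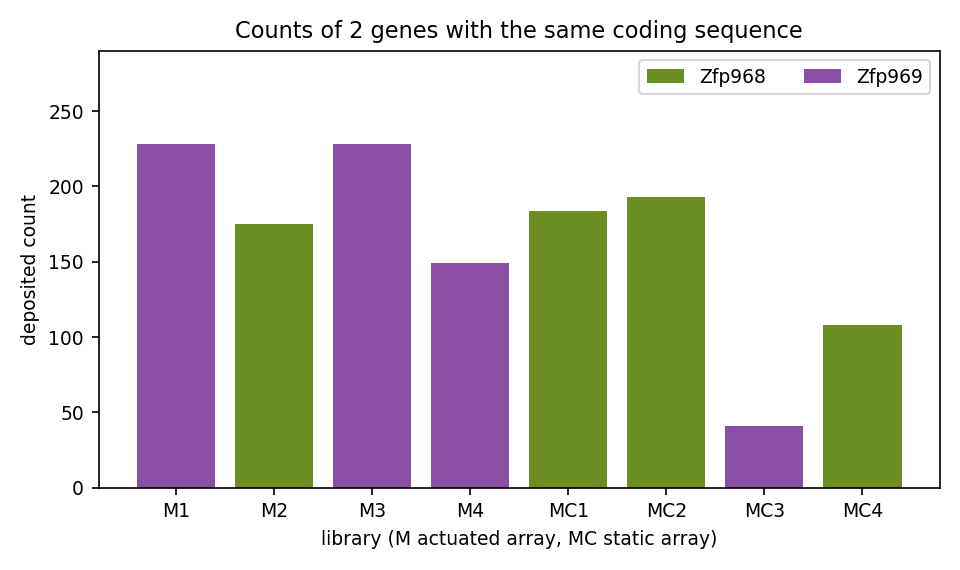
Bars show the deposited counts of Zfp968 and Zfp969, stacked, in each of the 8 array libraries. Each library holds counts of 1 gene only, and the sums run from 108 to 228 outside the shallow MC3, which has 41.

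The same sum was formed for the other leading genes that share at least 10% of their words with 1 other gene. Adnp, a homeobox and chromatin protein, shares 81.2% with Gm20716. Alone, Adnp was at 102.8, 94.98, 92.3 and 83.3 CPM against 73.6, 49.9 and 69.2 CPM (log2 difference 0.54), but the sum with Gm20716 was at 218, 210, 189 and 192 against 200, 183 and 183 CPM. The groups then overlap, with a difference of 0.10 (SE 0.09). Adnp alone was at 129 CPM in MC3, where Gm20716 had a count of 0, and its difference was 0.33 with MC3 added (unadjusted p = 0.16 in edgeR). With no low-count filter Adnp and Gm37013, each alone, passed edgeR's test at an adjusted p under 0.05. Gm37013 shares 84.3% with the protocadherin gene Pcdha4, and its difference went from -0.84 alone to 0.13 (SE 0.11) in the sum. Sord with Gm6652 (0.45), Lix1 with Gm11578 (0.62 alone, 0.64 summed) and Nme2, a nucleoside diphosphate kinase, with Gm20390 (-0.35 alone, -0.29 summed) kept their direction, and for Nme2 the groups then overlap. With these sums in place 0 genes were called and 397 were at an unadjusted p under 0.05.

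Of 9 cholinergic and neuromuscular genes fitted, 0 were called and 2 were at an unadjusted p under 0.05, where 2.75% of all genes were. Slc18a3, the vesicular acetylcholine transporter, was at 84.6, 68.3, 60.1 and 80.8 CPM in M1 to M4 and at 51.3, 56.5 and 59.4 CPM in MC1, MC2 and MC4. The lowest actuated value exceeds the highest static value by less than 1 CPM, and the log2 difference was 0.40 (SE 0.13, unadjusted p = 0.011 in edgeR). Chat, choline acetyltransferase, was at 10.8, 9.29, 9.70 and 9.54 against 6.16, 7.91 and 5.02 CPM (0.62, SE 0.23, unadjusted p = 0.021 in edgeR), and without MC4 the difference was 0.48 with an unadjusted p of 0.064. On the authors' TPM scale, which divides by transcript length, the order of Chat was not kept: MC1 was the highest library at 10.7 TPM, and the actuated libraries were at 3.54 to 5.94 TPM. In bulk RNA, fewer cells of a type and less RNA per cell cannot be told apart.

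Slc18a3 and Chat lie on chromosome 14, on the same strand, and their RefSeq starts on GRCm38.p6 are 1059 bases apart. In the reference transcripts, 0.0% of the words of Slc18a3 and 0.21% of those of Chat also occur in another gene. For Chat that gene is Gm10563, so Slc18a3 and Chat share no such words with each other. How reads between these starts were assigned was not tested. The choline transporter gene Slc5a7 was at 16.6, 13.1, 12.9 and 11.4 against 13.0, 9.30 and 5.15 CPM, which overlap (0.56, and 0.88 without MC1, 0.29 without MC4 or 0.36 with MC3). Agrn, the nerve-derived organizer of the neuromuscular junction, was at 212, 218, 223 and 255 against 207, 178 and 210 CPM (0.20, SE 0.10). Ache, acetylcholinesterase, and Prph, a peripheral neuron filament, had differences of 0.09 and 0.02 with overlapping groups. Calca, which encodes the neuropeptide CGRP, was at 26.1, 18.6, 18.7 and 22.4 against 28.0, 29.1 and 21.3 CPM (-0.29, SE 0.17). On the list 7 genes were above 0 and 2 below, with a median log2 difference of 0.18 against -0.0003 over all genes.

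Transcription factors of motor neurons overlapped between the groups. Foxp1, a factor of limb and other motor columns and the most abundant on the list, was at 153, 138, 103 and 130 CPM against 116, 113 and 110 CPM (0.21, SE 0.12). Mnx1, the factor whose promoter drives the reporter, was at 9.603, 10.2, 11.98 and 7.50 CPM against 7.11, 9.61 and 4.77 CPM. Isl1 was at 12.9, 7.61, 1.94 and 3.31 against 6.64, 7.21 and 1.67 CPM, so that M3, M4 and MC4 were the lowest, while MC3 held 30.98 CPM (19 counts) before scaling, the highest of the 8 array libraries. Lhx3 was at 0.773 to 3.36 CPM in all 7 libraries. Of 9 motor neuron transcription factors fitted, 0 were at an unadjusted p under 0.05 and the median difference was 0.08, which went to -0.06 without MC4. The summed level of 9 motor neuron markers was 398 to 658 TPM on the actuated array and 395 to 540 TPM on the static array.

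Immediate early genes are transcribed within minutes of depolarization or growth factor signals, and several of them varied far more between libraries than between arrays. Fos was at 27.7, 30.8, 230 and 249 CPM in M1 to M4 and at 31.1, 36.7 and 169 CPM in MC1, MC2 and MC4. Egr1, a zinc finger factor, was at 11.2, 13.1, 299 and 304 against 14.7, 10.9 and 208 CPM. In both genes M3, M4 and MC4 are high and M1, M2, MC1 and MC2 are low, so the arms overlap, and MC3, at 166 CPM for Fos and 253 CPM for Egr1 before scaling, stands with the high libraries.

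Other members had the same order of libraries. Ier2 was at 7.27, 9.59, 50.5 and 47.2 CPM against 8.65, 8.22 and 35.8 CPM. Nr4a1, an orphan nuclear receptor, was at 4.66, 4.55, 32.2 and 29.8 against 3.20, 2.79 and 21.8 CPM. Junb, an AP-1 subunit, was at 7.13, 8.50, 31.5 and 35.2 against 6.64, 5.74 and 27.6 CPM. Egr2, Egr3, Dusp1 and Btg2 were also higher in M3, M4 and MC4 than in each of the other 4 libraries, as was Vegfa, a growth factor gene outside the list, at 209, 265 and 198 CPM against 77.1 to 118 CPM. Jun did not have this order. The largest axis of a principal component analysis of the 7 libraries held 26.5% of the variance. It also set M3, M4 and MC4 (22.87, 13.48 and 35.8) apart from M1, M2, MC1 and MC2 (-29.45, -18.32, -15.01 and -9.361). The next axis (23.2%) did not have this order, with M3 at -31.86 and MC4 at 24.92. The main fit held no term for library number. The labels give no batch or date for these libraries, and what the numbers 3 and 4 share was not tested.

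Split by library number, M1 and M2 are both below MC1 and MC2 for Fos, and M3 and M4 are both above MC4, the only deep static library numbered 3 or 4. The fitted log2 difference was 0.78 (SE 0.82) for Fos and 1.03 (SE 1.22) for Egr1, and without MC4, which leaves no high library on the static side, these became 1.99 and 3.63 with unadjusted p-values of 0.047 and 0.024 in edgeR. With MC3 added they were 0.52 and 0.53. Of 26 immediate early genes fitted, 20 were above 0 and 1, Jun, was at an unadjusted p under 0.05, where 2.75% of all genes were. The median difference of the list was 0.34 with the 7 libraries, 0.04 with MC3 added, and -0.03 with all 26 libraries in 1 model. Arc, a synaptic plasticity gene, was outside the order of Fos and Egr1 at 14.0 to 18.1 CPM in the 7 libraries. Myc, at 22.5 to 29.8 CPM, and Jund, at 51.4 to 67.2 CPM, were outside it too. Npas4, a factor induced by neuronal activity, was at 0.31 to 4.79 CPM in the 7 libraries and at 34.2 CPM (21 counts) in MC3 before scaling.

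**Figure D4:**
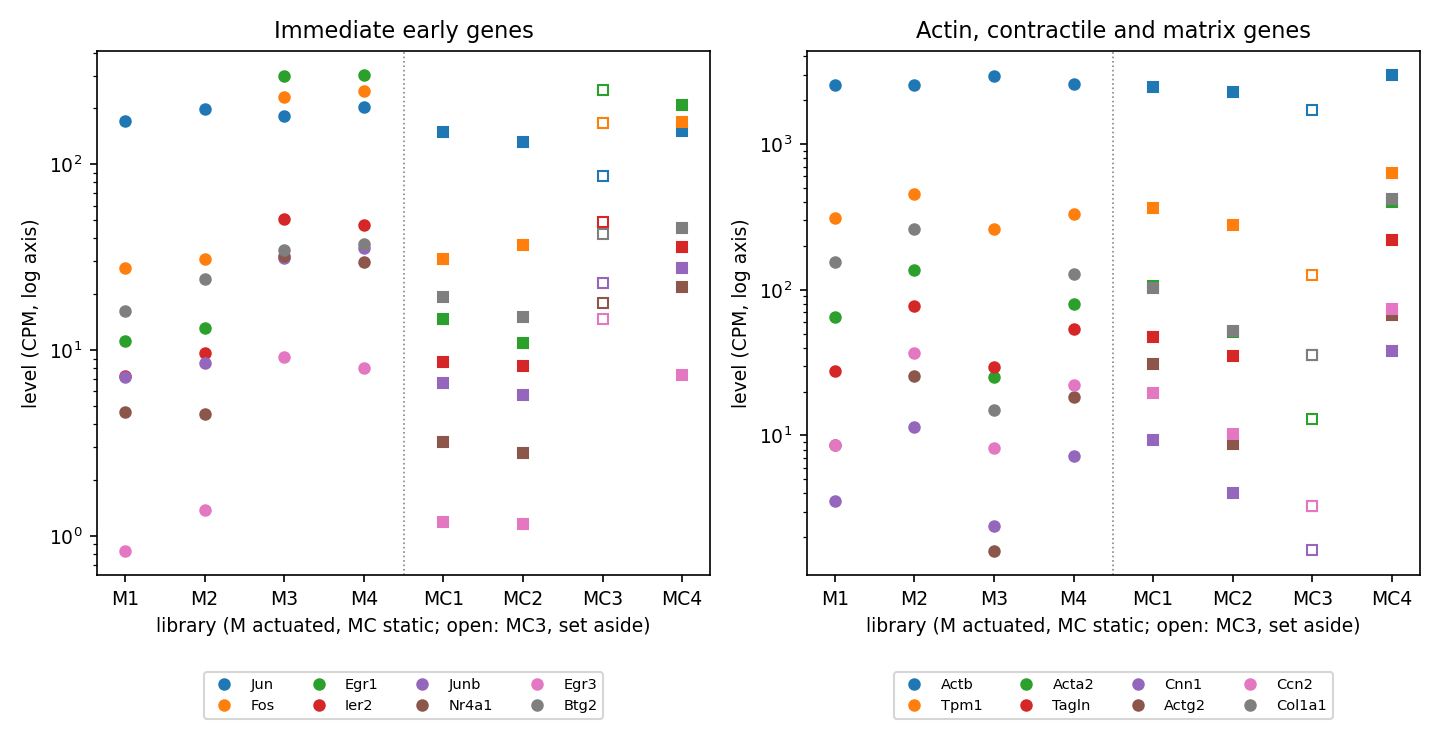
Levels in CPM on a log axis are plotted for 8 immediate early genes (left) and 8 actin, contractile and matrix genes (right) in each of the 8 array libraries, with MC3 as open symbols; points of equal value cover each other. Fos and Egr1 are high in M3, M4, MC3 and MC4, Jun is flat by comparison, and Acta2 and Tagln are highest in MC4.

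Actin and contractile genes linked to SRF were highest in 1 static library. Acta2, smooth muscle actin, was at 65.3, 137, 25.1 and 79.6 CPM on the actuated array and at 106, 51.7 and 400 CPM on the static array, the last in MC4. Tagln, an actin-binding protein of contractile cells, was at 27.8, 77.0, 29.4 and 54.1 against 47.6, 35.3 and 218 CPM. Cnn1, calponin, was at 3.57, 11.5, 2.40 and 7.25 against 9.24, 4.03 and 37.9 CPM. MC3 held Acta2 at 13.04 CPM before scaling, below each of the 7 libraries, as was Actb there at 1704 CPM. Without MC4 the differences of these 3 genes went from -1.27, -1.08 and -1.43 to -0.03, 0.20 and -0.07. Of 27 genes on this list 20 were below 0 and 0 were at an unadjusted p under 0.05, and the list's median went from -0.19 to 0.09 without MC4. The cytoplasmic actins Actb and Actg1 were at 2298 to 3003 and 1838 to 2189 CPM, with differences of 0.04 and 0.03, SRF itself (Srf) was at 13.4 to 25.9 CPM, and its coactivator Mrtfa was at 29.5 to 34.3 CPM.

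Fibroblast and matrix genes differed in which library was highest. Col1a1, a fibrillar collagen, was at 156, 262, 15.1 and 127 CPM against 102, 52.3 and 418 CPM (-0.44, SE 0.78). Col3a1, another fibrillar collagen, was at 208, 188, 11.8 and 83.8 against 57.4, 56.6 and 172 CPM (0.38, SE 0.70), with M1 and M2 above MC4. Of 9 fibroblast or mesenchyme markers fitted, 5 were above 0 and 0 were at an unadjusted p under 0.05, and their median was 0.29. The summed level of 10 fibroblast or mesenchyme markers was 149, 185, 20.99 and 85.9 TPM in M1 to M4 and 82.0, 38.4 and 180 TPM in MC1, MC2 and MC4, and none of the 10 was at 0 in all 7 libraries. M2 and MC4 were close in this sum, but single genes differed between them in size and direction. In M2 and MC4, Acta2 was at 137 and 400 CPM, Col1a1 at 262 and 418 CPM and Col3a1 at 188 and 172 CPM. The part of fibroblast-like cells in the contractile differences was not tested. Among 37 matrix genes fitted, 0 were called, and 1 was at an unadjusted p under 0.05, where 2.75% of all genes were. That gene, Eln, elastin, was at 17.01, 13.1, 12.7 and 13.7 against 10.7, 7.98 and 10.8 CPM (0.53, SE 0.20), and at 0.20 with MC3, which held 30.98 CPM before scaling. Thbs1, a matrix glycoprotein, had the largest negative value among matrix genes (-0.92, SE 0.54), with MC4 highest at 288 CPM.

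Targets of YAP and TAZ gave a median of -0.01 over 25 genes, 12 of them above 0, and none reached an unadjusted p under 0.05. Ccn2, a connective tissue growth factor and a standard target, was at 8.64, 37.1, 8.22 and 22.3 CPM against 19.6, 10.2 and 74.3 CPM (-0.84, SE 0.65), and went to 0.38 without MC4. Ankrd1 was likewise highest in MC4, at 33.0 CPM against 2.33 to 13.0 CPM in the other 6 libraries. The interval lay inside 2-fold for 20 of the 25 targets, against 77.7% of all genes.

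Mechanically gated channels were expressed and, with 1 exception, overlapped between arrays. Piezo2, a stretch-gated cation channel of sensory neurons, was at 119, 119, 97.3 and 117 CPM against 99.4, 94.1 and 125 CPM (0.09, 95% interval -0.17 to 0.36). Piezo1, its paralog, was at 19.5, 39.9, 11.5 and 27.2 against 19.7, 12.5 and 29.9 CPM. Tmem63a, of the OSCA/TMEM63 family of mechanosensitive channels, was at 5.76, 5.34, 5.13 and 6.87 against 2.73, 3.33 and 2.96 CPM. Every actuated library exceeded every static one for Tmem63a, by a log2 difference of 0.93 (SE 0.29, unadjusted p = 0.009 in edgeR). MC3 held 6.52 CPM, and with it the value was 0.75 with an unadjusted p of 0.088 in edgeR. Of 17 channels fitted, 1 was at an unadjusted p under 0.05, where 2.75% of all genes were. Intervals lay inside 2-fold for 12 of the 17, against 77.7% of all genes.

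Among 26 integrin and focal adhesion genes the median was 0.03. Pxn, paxillin, an adaptor of focal adhesions, was at 34.8, 31.3, 27.2 and 36.5 CPM against 26.8, 24.8 and 26.4 CPM (0.32, SE 0.13, unadjusted p = 0.035 in edgeR), and no other member was at an unadjusted p under 0.05. Over all genes, 2.75% were at an unadjusted p under 0.05. The interval was inside 2-fold for 21 of the 26, against 77.7% of all genes.

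Neuronal structure genes had intervals inside 2-fold, as most genes of 10 CPM or more did. All 36 cytoskeletal genes, 38 synaptic vesicle and active zone genes and 37 voltage-gated channel genes were inside, with medians of 0.03, 0.01 and 0.04. Over all genes 77.7% were inside 2-fold, with 97.0% between 10 and 100 CPM and 98.9% over 100 CPM. Tubb3 was at 749, 650, 759 and 681 CPM against 687, 684 and 665 CPM (0.06, SE 0.08). Map1b, a microtubule-associated protein of growing axons, was at 10053, 8906, 7362 and 8553 against 8872, 8946 and 6391 CPM (0.11, SE 0.14). Dcx, doublecortin, of migrating and young neurons, and Nefh, the heavy neurofilament, had differences of 0.17 (SE 0.10) and -0.14 (SE 0.11).

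Axon guidance genes had a median of 0.09 over 40 genes, 39 of them with intervals inside 2-fold. Nrp1, a semaphorin and VEGF coreceptor, was at 59.5, 62.4, 58.0 and 60.8 CPM on the actuated array and at 53.6, 48.4 and 48.7 CPM on the static array, so the groups did not overlap (0.26, SE 0.09, unadjusted p = 0.017 in edgeR). Unc5a, a netrin receptor, was at 28.3, 24.6, 25.6 and 28.4 against 20.7, 16.5 and 23.7 CPM (0.40, SE 0.15, unadjusted p = 0.024 in edgeR). These were the 2 members at an unadjusted p under 0.05, where 2.75% of all genes were. Without MC2 the difference of Unc5a was 0.27 (unadjusted p = 0.11 in edgeR).

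Receptors for the factors added to the medium had small differences. Gfra1 and Ret, which together bind GDNF, had differences of 0.21 (SE 0.10) and 0.16 (SE 0.14), and Gfra1 was at 186, 162, 162 and 147 CPM against 152, 143 and 131 CPM (0.35 with MC3, which held 71.7 CPM). Cntfr and Il6st, of the CNTF receptor, had differences of 0.14 (SE 0.10) and 0.15 (SE 0.09). Met, the receptor of hepatocyte growth factor, was at 26.9, 37.5, 27.2 and 26.6 against 25.8, 22.0 and 23.3 CPM, which do not overlap (0.32, SE 0.15). None of 20 neurotrophic receptors and ligands fitted was at an unadjusted p under 0.05. Klf7, a factor linked to axon regrowth, was at 72.6, 80.9, 79.9 and 99.1 against 71.7, 63.2 and 73.7 CPM (0.26, SE 0.12).

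Of 23 genes that respond to or carry the patterning signals used in differentiation, 0 were called, and 3 were higher at an unadjusted p under 0.05, where 1.36% of all genes were. Ptch1, the hedgehog receptor and a target of the pathway, was at 133, 110, 137 and 147 CPM on the actuated array and at 102, 106 and 110 CPM on the static array (0.31, SE 0.11, unadjusted p = 0.015 in edgeR). Crabp2, a retinoic acid carrier, was at 90.7, 71.8, 76.9 and 78.7 against 64.1, 72.5 and 56.5 CPM (0.30, SE 0.12, unadjusted p = 0.026 in edgeR). Gli1, a transcriptional target of hedgehog, was at 4.66, 3.26, 0.913 and 2.42 against 0.474, 1.55 and 1.03 CPM (1.42, SE 0.62, unadjusted p = 0.044 in edgeR). The groups overlap in each of these 3 genes. The median of the 23 genes on the list was 0.17, and 0.07 with MC3 added. Dll1, a Notch ligand, was at 11.8, 13.6, 25.4 and 14.1 against 11.0, 11.1 and 11.5 CPM (0.54, not at an unadjusted p under 0.05), and 0.24 without M3 or 0.20 with MC3, which held 35.9 CPM.

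Counting each gene once, 636 genes of the 25 pathway lists were fitted, and 0 were called. At an unadjusted p under 0.05 there were 16 higher and 3 lower, or 2.99% against 2.75% of all genes, and 82.9% had intervals inside 2-fold. Heat shock proteins (median -0.04), the unfolded protein response (0.05), cholesterol synthesis (0.05, with all 23 genes fitted inside 2-fold), glycolysis and hypoxia (0.05) and the cell cycle (-0.04) all lay within 0.06 of 0. Mitochondrially encoded genes had a median of 0.21, but -0.03 with MC3 added, and M3 held the largest share of mitochondrial mRNA, 1.57% against 0.866% to 1.07% in the other 6 libraries. Within that list mt-Co2, a subunit of cytochrome c oxidase, had counts of 595, 882, 0 and 72 on the actuated array and of 723, 716 and 924 on the static array, while Gm28661, which holds 99.5% of its 31-base words, had 3825, 3622, 9894 and 5349 against 3965, 6569 and 4563.

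**Figure D5:**
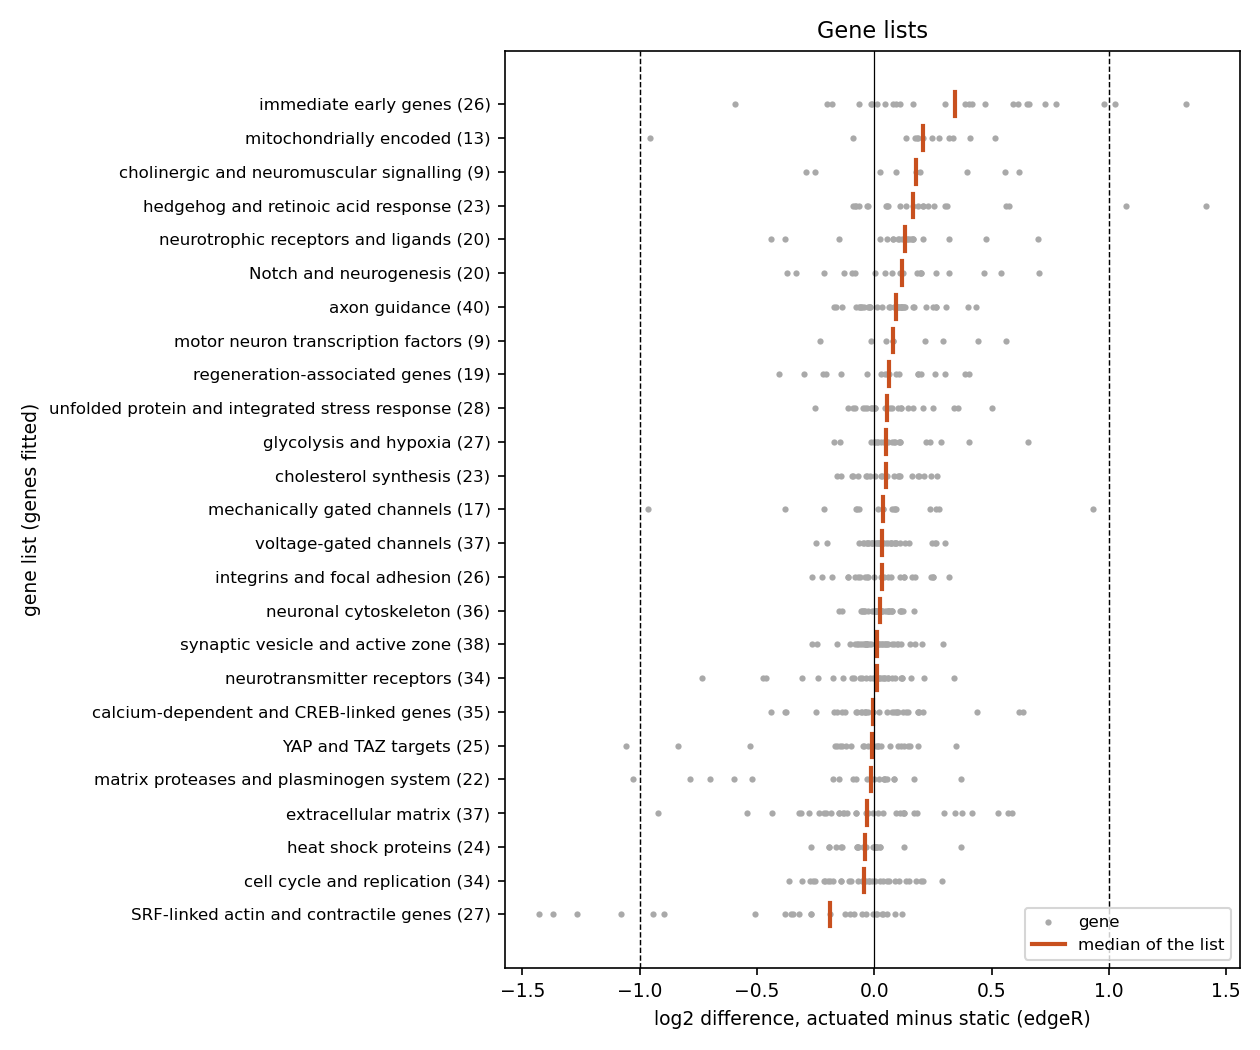
Each grey point is 1 fitted gene of a list, placed by its log2 difference, actuated minus static, and the bar is the list's median. Dashed lines mark 2-fold. Medians run from -0.19 for SRF-linked genes to 0.34 for immediate early genes, and no gene passed adjustment.

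Marker lists of other cell types showed a mixed culture in both arms. Oligodendrocyte-lineage markers summed to 65.3 to 265 TPM on the actuated array and 125 to 264 TPM on the static array. Mbp, myelin basic protein, was at 30.6, 20.7, 151 and 84.8 TPM in M1 to M4 and at 53.7, 94.99 and 141 TPM in MC1, MC2 and MC4, so the groups overlap. Markers of astrocytes or radial glia summed to 2363 to 2914 TPM and 2266 to 2875 TPM in the actuated and static groups. Skeletal muscle markers were at 9.48 to 16.2 and 3.13 to 44.5 TPM, with Des, desmin, at 39.5 TPM in MC4, and those of microglia or macrophages at 0.916 to 8.17 and 0.447 to 1.61 TPM, with C1qa at 0 in all 7 libraries. Of the genes fitted from the 12 marker lists only Slc18a3 and Chat were at an unadjusted p under 0.05.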

How the data were processed

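The authors deposited, for 56941 genes in 26 libraries, TPM and estimated counts that are all whole; expected counts were used as deposited. Per the labels' protocols, libraries were made from 4 ng of total RNA (the full volume for the 8 samples of lowest concentration) with rRNA cleavage and 5 plus 15 PCR cycles, and read as pairs of 50 bases. Per the submitters' processing notes, the tools were STAR, Salmon, BWA 0.7.12-r1039 and bedtools 2.25.0 and the builds mm10, hg19 and GRCm39. The sources used here do not give the role of each tool or build, or whether counting used strand. They mention no molecular identifiers, so limits cover counting error only.

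The counts of the 7 libraries were fitted with edgeR 4.0.16 (R 4.3.3), using filterByExpr, TMM scaling, the quasi-likelihood test and Benjamini-Hochberg adjustment over all 14600 genes at 0.05. CPM are TMM-scaled, except for MC3, whose unscaled values ran low in abundant genes such as Actb and Gapdh. Intervals are 95%, from the SE and the model's degrees of freedom. The script was tested on simulated data. Library values were compared by exact permutation over 35 splits. The 8 array libraries differed pairwise by 5.28 to 51.8 in chi-square per degree of freedom (genes of at least 20 counts), more than sampling noise. Biotypes were read from the count table. Words of 31 bases came from GENCODE vM21 transcripts.

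The genes named are the 15 protein-coding genes of smallest p in each direction at 10 CPM or more, those of them that an alternative called, members of the lists as descriptions, and Jun and Zfp969. Of the leading genes, 1 is not reported here. Vegfa and the partners of near-identical copies were named after their values were seen. The comparison, its members and the gene lists were chosen with earlier results of these data known. Alternatives were DESeq2 1.42.0, limma 3.58.1 (also on the deposited TPM), other scalings, filters, thresholds and sets of libraries, thinning and a replicate block. A covariate for library number and the sums over copies were added after seeing the data.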

Additional observations from a re-analysis of the deposited data

Results flagged for a closer look

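Among the 4 actuated libraries, 100 values (95 of them genes) were searched for a library far from the other 3 by Dixon's 95% limit for 4 samples, and 8 passed it, where chance passes about 1 in 20. Timm17a was at 38.412 CPM in M1 and at 29.3 to 30.5 CPM in the others. Cby1 was lowest in M1, at 35.942 CPM against 39.4 to 39.5 CPM. Ache was lowest in M4, at 52.654 CPM against 59.6 to 60.5 CPM. Piezo2 was lowest in M3, at 97.33 CPM against 117 to 119 CPM, and so was Cntfr, at 51.232 CPM against 54.8 to 55.1 CPM. Met was highest in M2, at 37.458 CPM against 26.6 to 27.2 CPM, and Dll1 was highest in M3, at 25.445 CPM against 11.8 to 14.1 CPM. Zfp968 was at 17.296 CPM in M2 and at 0 in the other 3, the libraries whose counts lie on the identical Zfp969.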

How the results depend on the processing

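The number of genes called was 0 in every alternative but 3: 110 with no low-count filter, 3 with a replicate block and 2 without actuated replicate 2. Of the leading genes, Zfp969, Adnp and Gm37013 were among the 110. The range was 0 to 2 when each library was left out in turn. The 3 genes under the block were Gm26444, Gm23849 and Zfp969, and the 2 without M2 were Zfp969 and Zfp968. The labels state no pairing by library number, and the main fit used no block. The deviations of same-numbered libraries correlated at 0.25 (M1, MC1), -0.15 (M2, MC2) and 0.34 (M4, MC4). Those of the other pairs correlated at -0.33 to 0.22, so a shared factor in some same-numbered libraries was not settled. Genes at an unadjusted p under 0.05 numbered 1313 with no filter, 56 with 21 deeper libraries of all groups, 999 with the replicate block, 862 with a covariate for numbers 1-2 against 3-4, and 305 to 677 when 1 library was left out, the most without MC4. Genes with an interval inside 2-fold numbered 4801 with all 26 libraries. Genes whose groups do not overlap numbered 1006 with no filter, 302 with MC3 added, 309 with all 26 libraries, and 1031 to 2059 when 1 library was left out. Of the leading genes, 2 reversed: Ctnna3 to -0.10 with all 26 libraries and Gm37013 to 0.13 with copies summed. On log2(TPM + 1) the median of all genes shifted to 0.109, and 318 of 435 genes at an unadjusted p under 0.05 were higher, against 198 of 402 on counts; with MC3 added it was 85 of 276 and with all 26 libraries 7 of 575. The causes were not tested. Depth limits genes under 10 CPM most, and MC3, at 613344 counts, limits any statement on it.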
